A study of Mus musculus with 5 samples.

Results

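The expression of matricellular genes was analyzed in cultured murine cancer-associated fibroblasts (CAFs), the contractile, matrix-producing cells that surround tumors. The 10 genes were taken by symbol as a gene family, with no threshold on their values: the thrombospondins Thbs1, Thbs2, Thbs3 and Thbs4, the tenascins Tnc, Tnxb and Tnn, periostin (Postn), osteonectin (Sparc) and osteopontin (Spp1). All 10 were found, each in 1 of the 54636 gene rows of the count table. RNA sequencing covered 5 libraries, 1 per condition. Myosin IIA KO CAFs came from tumors grown in αSMA-CreERT2; R26mT/mG; myosin IIA fl/fl mice and are the Cre+ culture. Their Cre- control CAFs came from the same floxed line without Cre, and the labels give 2 µM tamoxifen in vitro for both. In that line the αSMA promoter drives Cre, so the knockout depends on a cell having expressed αSMA. CAFs from patient-derived xenografts (PDX) came, according to the methods, from rectal tumors grown in nude mice. These hosts carry the Foxn1nu mutation and lack T cells. The PDX CAFs are wild type for myosin IIA. They were transfected with Fn1 siRNA, with control siRNA, or left untreated, the transfected cells being used after 48 h. According to the methods, all lines were grown out of tumor pieces and immortalized with SV40 large T antigen, so these are values of cultured, immortalized cells. The labels call every source a subcutaneous rectal tumor, whereas for the floxed mice the methods describe tumoroids injected into the interscapular fat pad. Those tumoroids came from mouse intestinal tumors with activated Notch1 and deleted p53. For tumors in the floxed mice, the methods also describe irradiation and bone marrow transplantation of the hosts, and tamoxifen injections during tumor growth. The age of the animals is not in the labels.

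Matricellular proteins are secreted into the matrix, where they bind collagens, fibronectin, growth factors and cell surface receptors without forming the main load-bearing fibers themselves. They are known for high expression in wound healing, fibrosis and tumor stroma, and for low expression in most resting adult tissues. Thrombospondins and tenascins modulate adhesion, periostin and osteonectin take part in collagen assembly, and osteopontin is a ligand of integrins and of the hyaluronan receptor CD44.

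In the table, whose coordinates are on mm10, the thrombospondin genes are Thbs1 (chr2:118111876-118127133, plus strand), Thbs2 (chr17:14665500-14694235, minus strand), Thbs3 (chr3:89215180-89226837, plus strand) and Thbs4 (chr13:92751590-92794818, minus strand). The tenascin genes are Tnc (chr4:63959785-64047015, minus strand), Tnxb (chr17:34670535-34719815, plus strand) and Tnn (chr1:160085029-160153580, minus strand). The others are Postn (chr3:54361109-54391037, plus strand), Sparc (chr11:55394500-55423183, minus strand) and Spp1 (chr5:104435118-104441050, plus strand). Tnxb and Thbs2 thus share chromosome 17, and Thbs3 and Postn share chromosome 3, far apart in both cases.

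Libraries held 22961620 to 26596351 counts. A count of 0 was read as up to 3 counts, which corresponded to 0.108 to 0.135 CPM (counts per 1000000 library counts, scaled between libraries by the trimmed mean of M values, TMM). With 1 library per condition there was no replicate error and no p-value. The 95% intervals given are exact Poisson intervals for levels and exact binomial intervals for ratios, and they cover counting error only, not differences between cultures. Myh9, the floxed gene, was at 425 CPM in myosin IIA KO and 2419 CPM in Cre- control CAFs, and Fn1 was at 1282 CPM with Fn1 siRNA and 4778 CPM with control siRNA, so each targeted gene was lower in its labelled library. Whether the Myh9 RNA counted in the knockout came from cells without recombination or from the recombined allele cannot be told from gene counts. Fibroblast markers were present, with Col1a1 between 10768 and 20909 CPM and 7 or 8 of 8 listed markers at 1 CPM or more in every library, whereas Fap stayed between 0.466 and 5.36 CPM. Ptprc (CD45) had no count in any library, and of 6 epithelial markers none reached 1 CPM. In bulk RNA, fewer cells of a type and less RNA per cell cannot be told apart.

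RefSeq promoters (GRCm38.p6, the build that mm10 names) were matched by symbol for 9 of the 10 genes, all but Thbs1. Shown here are the 250 bases before the start of Thbs2 (chr17:14694263-14694512, minus strand), Postn (chr3:54360857-54361106, plus strand), Spp1 (chr5:104434861-104435110, plus strand) and Tnc (chr4:64047016-64047265, minus strand), which are shown because Spp1, Thbs2 and Postn had the widest ranges among the members at 10 CPM or more, and Thbs2 and Tnc the lowest ratios of those members in the knockout. Postn, Spp1 and Tnc have a second listed start, and the one nearest the gene start in the count table is shown. Capitals mark the motifs searched, on either strand.
Thbs2: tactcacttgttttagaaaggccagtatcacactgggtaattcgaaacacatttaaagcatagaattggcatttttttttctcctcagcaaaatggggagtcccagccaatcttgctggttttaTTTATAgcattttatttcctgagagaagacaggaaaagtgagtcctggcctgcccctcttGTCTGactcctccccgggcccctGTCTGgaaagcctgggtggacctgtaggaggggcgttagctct
Postn: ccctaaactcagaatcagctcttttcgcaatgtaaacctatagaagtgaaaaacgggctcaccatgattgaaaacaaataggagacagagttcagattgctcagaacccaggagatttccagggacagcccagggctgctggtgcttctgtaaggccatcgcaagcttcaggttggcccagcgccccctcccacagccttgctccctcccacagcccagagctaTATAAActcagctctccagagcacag
Spp1: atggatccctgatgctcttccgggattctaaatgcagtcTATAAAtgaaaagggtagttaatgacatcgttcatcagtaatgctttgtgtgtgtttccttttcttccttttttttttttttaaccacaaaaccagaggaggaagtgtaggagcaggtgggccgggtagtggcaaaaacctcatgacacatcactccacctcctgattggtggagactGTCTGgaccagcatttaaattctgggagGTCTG
Tnc: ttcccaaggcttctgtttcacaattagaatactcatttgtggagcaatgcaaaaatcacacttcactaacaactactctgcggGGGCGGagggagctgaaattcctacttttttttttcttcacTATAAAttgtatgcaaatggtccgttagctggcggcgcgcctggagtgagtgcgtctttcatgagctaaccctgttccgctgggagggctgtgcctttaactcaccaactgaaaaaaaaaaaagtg
The motifs searched were the TATA box (TATAAA), the core bound by SMAD factors (CAGAC), the TEAD site (GGAATG), the AP-1 site (TGANTCA), which reads alike on both strands, the GC box (GGGCGG) and, by name, the CArG box of SRF. No matches overlap in the promoters shown. Postn carries the TATA box from 26 to 21 bases before its start. Thbs2 (on the opposite strand) and Tnc carry it from 126 to 121 bases before the start, and Spp1 from 211 to 206. Over all listed starts of the 9 matched genes, the TATA box was found in 4 genes, the SMAD core in 7, the GC box in 3, the TEAD site in 2, the AP-1 site in 1 and the CArG box in 0. Among 32851 RefSeq promoters, counted per start over the same 250 bases, 12.4% held the TATA box, 42.2% the SMAD core, 32.7% the GC box, 12.6% the TEAD site, 6.75% the AP-1 site and 1.47% the CArG box. A gene counted when any of its listed starts held the motif, so these counts and the shares per start are not on the same basis. Postn and Tnc held the SMAD core only at the start not shown. The only listed start of Sparc, also with a SMAD core, lies 3103 bases from the gene start in the count table. A match describes the letters in this window and does not show a binding site.

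Per gene length, Sparc made up most of the matricellular RNA in all 5 libraries. Thbs1 came second in 4 of them, and in untreated PDX CAFs Spp1 at 908 TPM, Thbs2 at 809 TPM and Thbs1 at 725 TPM followed Sparc. Levels between genes were compared as TPM (counts divided by the gene length in the table and scaled to a sum of 1000000 in each library). The 10 genes summed to 10536 TPM in myosin IIA KO CAFs, 10413 TPM in Cre- control CAFs, 7292 TPM with Fn1 siRNA, 7019.6 TPM with control siRNA and 6456 TPM in untreated PDX CAFs. Sparc, a collagen-binding glycoprotein, held 65.8% of this sum in myosin IIA KO, 58.9% in Cre- control, 56.1% with Fn1 siRNA, 54.5% with control siRNA and 54.4% in untreated PDX CAFs, and ranked between 8 and 15 among 22046 protein-coding genes. Thbs1 held 19.4% in myosin IIA KO, 18.8% in Cre- control, 24.6% with Fn1 siRNA and 24.6% with control siRNA, but 11.2% in untreated PDX CAFs. There, Spp1 held 14.1% and Thbs2 12.5%. In Cre- control CAFs the second place went to Thbs1 with 1960 TPM, closely followed by Postn with 1704 TPM, a share of 16.4%. By counts not divided by length, Postn was above Thbs1 in this library (4286 CPM against 3440 CPM). The order of these genes thus depended on the lengths used, 8702 bases for Postn and 6073 bases for Thbs1. These lengths equal all annotated exon bases of each gene. At the other end, Thbs3, Tnxb, Tnn and Thbs4 each stayed under 0.5% of the sum in every library, the largest share being 0.437% for Thbs3 in Cre- control CAFs.

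**Figure D1:**
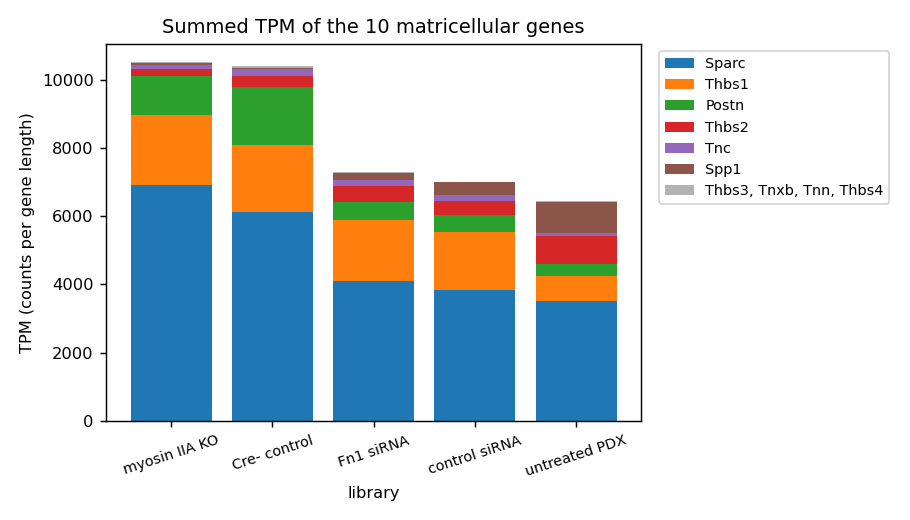
Stacked bars of TPM for the 10 matricellular genes, 1 bar per library, with the 4 genes of lowest level in gray. The bars sum to 10536 TPM in myosin IIA KO and 10413 TPM in Cre- control CAFs, against 6456 TPM in untreated PDX CAFs, and Sparc is the largest segment in each of the 5 bars.

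Among the thrombospondins, Thbs1 and Thbs2 were the abundant members and the untreated PDX culture stood at opposite ends, lowest for Thbs1 and highest for Thbs2. Both encode trimeric proteins known as inhibitors of angiogenesis, and Thbs1 is also an activator of latent TGF-beta. Thbs1 was at 3296 CPM in myosin IIA KO, 3440 CPM in Cre- control, 3430 CPM with Fn1 siRNA, 3159 CPM with control siRNA and 1318 CPM in untreated PDX CAFs. Thus 4 libraries lay within a narrow range and the untreated one was low. Thbs2 was at 337 CPM in myosin IIA KO, 665 CPM in Cre- control, 1035 CPM with Fn1 siRNA, 867 CPM with control siRNA and 1697 CPM in untreated PDX CAFs, which puts the untreated library highest and the knockout lowest. Thbs3 and Thbs4 belong to the pentameric branch of the family, together with Comp. Thbs3 was at 46.2 CPM in myosin IIA KO, 63.4 CPM in Cre- control, 26.0 CPM with Fn1 siRNA, 22.4 CPM with control siRNA and 32.8 CPM in untreated PDX CAFs, higher in both cultures from floxed mice than in any PDX culture. Thbs4 was at the limit of detection, with 7 counts in myosin IIA KO, 7 in Cre- control, 2 with Fn1 siRNA, 0 with control siRNA and 0 in untreated PDX CAFs.

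The ratio of Thbs1 to Thbs2 within a library needs no scaling between libraries, and was computed after these levels were seen. Per length it was 11.3 in myosin IIA KO CAFs (95% interval 11.0 to 11.5), 5.96 in Cre- control CAFs (5.87 to 6.06), 3.82 with Fn1 siRNA (3.77 to 3.88), 4.20 with control siRNA (4.14 to 4.27) and 0.896 in untreated PDX CAFs (0.883 to 0.909). The untreated PDX library was the only one of the 5 in which Thbs2 exceeded Thbs1.

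**Figure D2:**
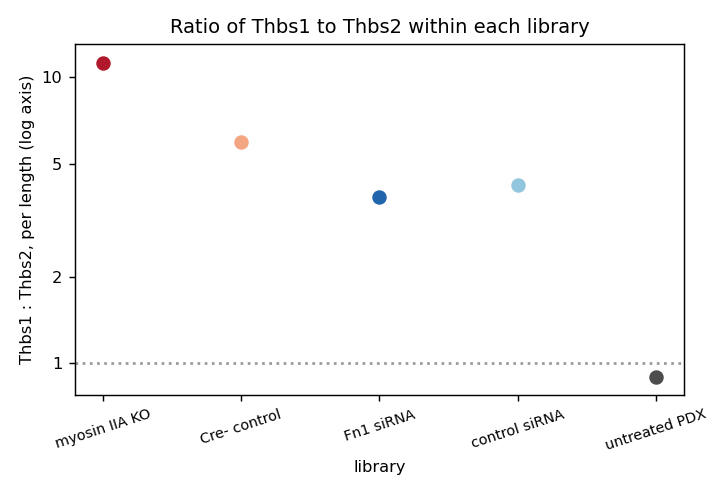
Ratio of Thbs1 to Thbs2 per gene length (log axis) in each of the 5 libraries, with 95% counting intervals that are mostly smaller than the points; the dotted line marks equal levels. The ratio is 11.3 in myosin IIA KO against 5.96 in Cre- control CAFs, and 4.20 with control siRNA against 0.896 in untreated PDX CAFs.

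Of the tenascins, only Tnc was abundant. Tnc encodes an anti-adhesive matrix protein of wound and tumor stroma, and was at 254 CPM in myosin IIA KO, 433 CPM in Cre- control, 431 CPM with Fn1 siRNA, 420.3 CPM with control siRNA and 254 CPM in untreated PDX CAFs. The levels formed a lower pair, the knockout and the untreated culture, and an upper group of 3, and within each of these the counting intervals of the ratio between neighbors included equality. Tnxb, whose product is involved in collagen fibril organization in skin and tendon, was at 10.6 CPM in myosin IIA KO, 8.61 CPM in Cre- control, 8.74 CPM with Fn1 siRNA, 13.1 CPM with control siRNA and 15.8 CPM in untreated PDX CAFs. Tnn, which encodes tenascin-W, had 35 counts in myosin IIA KO and 56 in Cre- control CAFs, but 5 with Fn1 siRNA, 7 with control siRNA and 5 in untreated PDX CAFs. Both libraries from floxed mice were thus above 1 CPM for Tnn (1.27 CPM in the knockout and 2.14 CPM in the control), and the 3 PDX libraries were at most at 0.269 CPM, where the intervals between neighbors included equality.

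Postn and Sparc were highest in the cultures from floxed mice, and Spp1 was highest in those from PDX. Periostin binds integrins and recruits the procollagen proteinase BMP1, which is known to activate the collagen crosslinking enzyme lysyl oxidase. Postn was at 2675 CPM in myosin IIA KO, 4286 CPM in Cre- control, 1448 CPM with Fn1 siRNA, 1248 CPM with control siRNA and 958 CPM in untreated PDX CAFs. Sparc was at 6979 CPM in myosin IIA KO, 6717 CPM in Cre- control, 4887 CPM with Fn1 siRNA, 4367 CPM with control siRNA and 3980.4 CPM in untreated PDX CAFs, with 1.75-fold between the ends. Spp1 had the widest range, 22.4-fold. It was at 25.7 CPM in myosin IIA KO, 20.0 CPM in Cre- control, 113 CPM with Fn1 siRNA, 189 CPM with control siRNA and 448 CPM in untreated PDX CAFs. Macrophages are a known source of osteopontin, and in these libraries Ptprc had no count and the macrophage marker Adgre1 was at most at 0.0723 CPM. The 7 immune markers summed to 2.88 CPM in untreated PDX CAFs, where Spp1 was highest and where Csf1r and Cd68 were the 2 markers at 1 CPM or more, and to at most 8.97 CPM in the other libraries. The part of immune cells in the Spp1 levels was not tested. Exons of a predicted gene, Gm42793, on the same strand cover 18.8% of the exon bases of Spp1, but that gene had at most 4 counts in any library. Whether the counting used strand is not given in the sources here. For the other 9 genes the exon overlap was at most 6.59%, that of Thbs3 with Mtx1 on the opposite strand, so reads from these bases are uncertain.

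**Figure D3:**
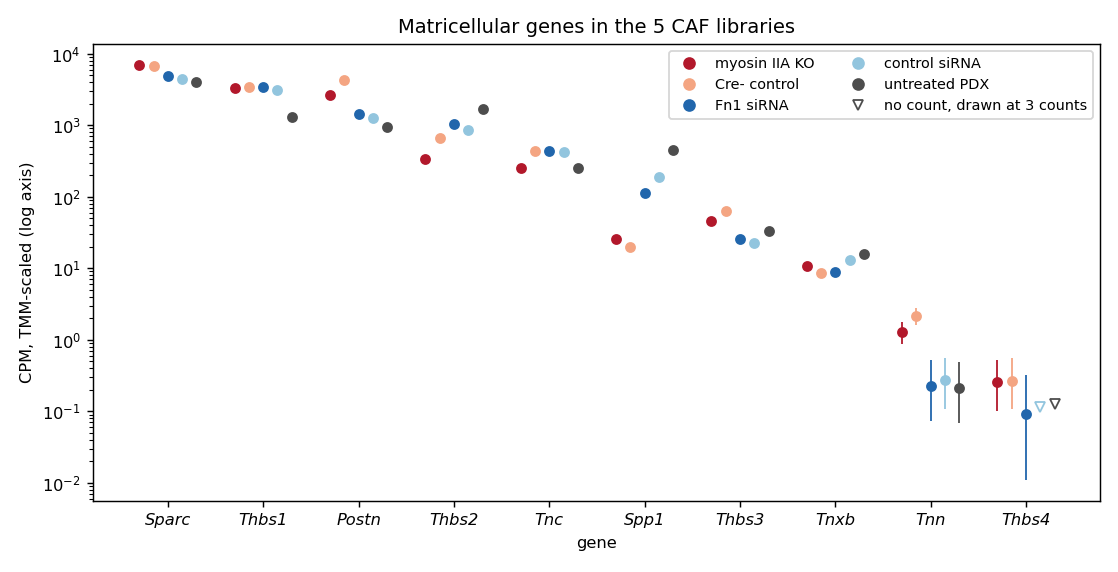
Level of each matricellular gene in each library in TMM-scaled CPM (log axis); points are single libraries, bars are 95% Poisson intervals of the count, and open triangles stand for 0 counts, drawn at the level of 3 counts. Spp1 spans 20.0 to 448 CPM, whereas Sparc lies between 3980.4 and 6979 CPM.

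To ask how the loss of myosin IIA went along with matricellular expression, myosin IIA KO CAFs were compared with Cre- control CAFs. Of the 9 matricellular genes at 1 CPM or more in either library, 0 were over 2-fold higher and 0 over 2-fold lower, against 3.29% and 1.7% of 13326 genes compared. The tenth, Thbs4, was below the filter. Several members nonetheless lay under the control. Thbs2 came closest to the threshold, 1.97-fold lower with a log2 ratio of -0.98 (95% interval -1.02 to -0.94). Tnc followed at -0.77 (-0.81 to -0.73), Postn at -0.68 (-0.69 to -0.67) and Thbs3 at -0.46 (-0.56 to -0.35). Among the 9719 genes at 10 CPM or more in either library, Thbs2 was number 77 from the lowest ratio, Tnc number 146 and Postn number 199. Thbs1 at -0.062 and Sparc at 0.055 stayed within 1.04-fold of the control, and the sign of Thbs1 turned when library totals replaced TMM (0.012). On the positive side were Spp1 at 0.36 (0.19 to 0.53) and Tnxb at 0.30 (0.044 to 0.56), both from low levels. Tnn had a log2 ratio of -0.75 with a wide interval of -1.41 to -0.12. The median over the 9 genes was -0.46, and that of all genes compared was -0.0055. It was -0.27 with all 10 genes and no filter, and -0.26 with a filter of 10 CPM. Other cell markers also differed between these libraries: 7 adipocyte markers summed to 3337 CPM in myosin IIA KO (7 at 1 CPM or more) and 954 CPM in Cre- control CAFs (6 at 1 CPM or more), none at 0 in either. Adipoq among them was at 159 CPM in the knockout and 18.9 CPM in the control. The 8 fibroblast markers, none at 0, summed to 32894 CPM in the knockout and 44895 CPM in the control. Among them, Acta2 was at 3383 CPM in the knockout and 7727 CPM in the control, whereas Pdgfra was higher in the knockout (360 CPM against 338 CPM). The 3 tendon markers, none at 0, summed to 5.50 CPM in the knockout (2 at 1 CPM or more) and 24.6 CPM in the control (3 at 1 CPM or more). Tnmd made up most of these sums, at 3.04 CPM in the knockout and 22.2 CPM in the control. Scx was also lower in the knockout (0.362 CPM against 1.34 CPM), whereas Mkx was higher (2.10 CPM against 1.03 CPM). Mitochondrial transcripts took 1.55% of counts in the knockout and 1.04% in the control. The part of these differences in the matricellular ratios was not tested, and with 1 culture each the knockout and other differences between cultures cannot be told apart.

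The comparison of Fn1 siRNA with control siRNA asked how matricellular genes stood when fibronectin, to which several of their products bind, was depleted. Of 8 genes at 1 CPM or more, 0 were over 2-fold higher and 0 over 2-fold lower, against 0.523% and 0.377% of 13009 genes compared. Tnn and Thbs4 were below the filter. Spp1 and Tnxb stood apart from the others on the lower side. Spp1 was 1.69-fold lower, with a log2 ratio of -0.76 (-0.83 to -0.69), and was number 8 from the lowest among 9347 genes at 10 CPM or more in either library. Tnxb was at -0.59 (-0.86 to -0.34) and number 15. This rests on 194 counts with Fn1 siRNA and 340 with control siRNA. The other 6 genes were slightly higher. Thbs2 was at 0.24 (0.22 to 0.27), Thbs3 at 0.20 (0.036 to 0.37), Postn at 0.20 (0.18 to 0.22), Sparc at 0.15 (0.14 to 0.16), Thbs1 at 0.11 (0.091 to 0.12) and Tnc at 0.022 (-0.018 to 0.062). The last changed sign by library totals. The median of the 8 was 0.13, against -0.0029 for all genes compared. With 1 culture each, the loss of Fn1 RNA and other differences between the cultures cannot be told apart. The methods list more than 1 siRNA against Fn1, and the labels do not say which was used. The 8 fibroblast markers, none at 0 and 7 at 1 CPM or more in each, summed to 30574 CPM with Fn1 siRNA and 26957 CPM with control siRNA, and their part in the matricellular ratios was not tested. Other marker sums were 449 CPM (Fn1 siRNA) and 407 CPM (control siRNA) for the 7 adipocyte markers (3 of 7 at 1 CPM or more in each; Adipoq and Lep at 0 in both, Cidec at 0 with Fn1 siRNA) and 46.6 CPM (Fn1 siRNA) and 46.3 CPM (control siRNA) for the 5 mural cell markers (2 at 1 CPM or more, Kcnj8 and Abcc9 at 0 in both).

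**Figure D4:**
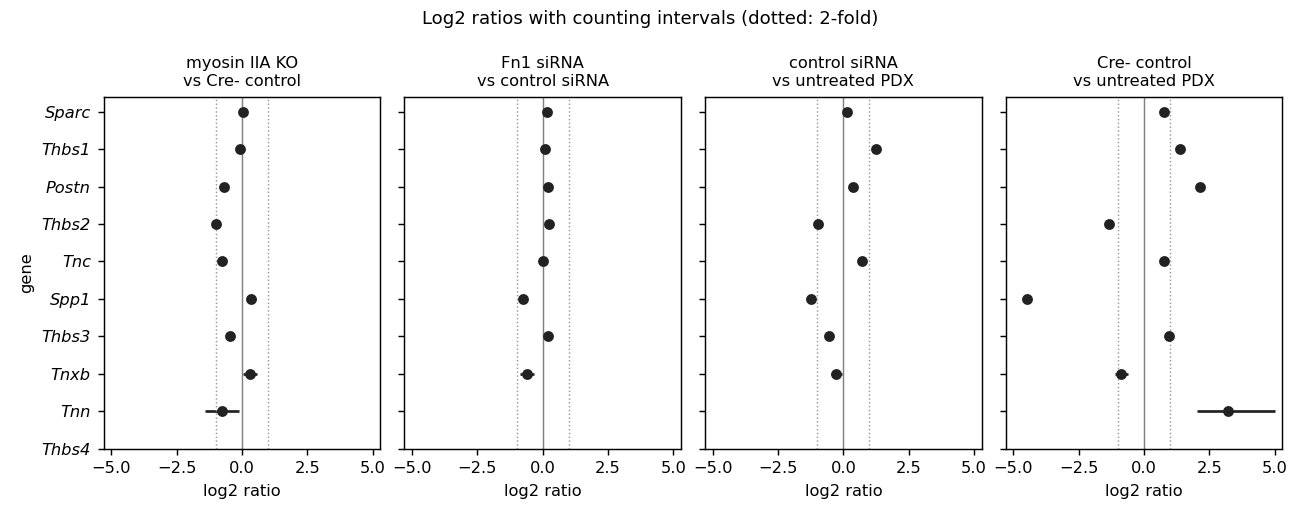
Log2 ratio of each matricellular gene (rows) in the 4 comparisons (panels), with 95% counting intervals and dotted lines at 2-fold; genes under 1 CPM in both libraries have no point. No point passes 2-fold in the first 2 panels, where the lowest are Thbs2 at -0.98 and Spp1 at -0.76, while Spp1 lies at -4.48 in the panel of Cre- control against untreated PDX CAFs.

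Transfection with control siRNA, compared with untreated PDX CAFs, had members over 2-fold apart although neither Fn1 nor myosin IIA was targeted. Of 8 genes compared, 1 was over 2-fold higher and 1 over 2-fold lower, against 2.98% and 2.74% of 13125 genes. Thbs1 was 2.40-fold higher, at a log2 ratio of 1.26 (1.24 to 1.28), and number 84 from the highest among 9562 genes at 10 CPM or more. Spp1 was 2.37-fold lower, at -1.24 (-1.29 to -1.20). Thbs2 lay just inside the threshold at -0.97 (-0.99 to -0.95) and passed it by library totals, with -1.04. Tnc was at 0.73 (0.68 to 0.77), Postn at 0.38 (0.36 to 0.40) and Sparc at 0.13 (0.12 to 0.15). Thbs3 was at -0.55 (-0.71 to -0.40) and Tnxb at -0.27 (-0.49 to -0.057). The median of the 8 genes was -0.069, and that of all genes compared was -0.014, with 4 of the 8 above 0. The mural marker sum was 46.3 CPM with control siRNA, with 2 of 5 markers at 1 CPM or more, and 12.6 CPM in untreated PDX CAFs, with 1 of 5; Kcnj8 and Abcc9 were at 0 in both. Mcam made up most of this sum, at 42.6 CPM with control siRNA and 11.0 CPM in untreated PDX CAFs, whereas Rgs5 was at 0.192 CPM with control siRNA and 0.678 CPM in untreated PDX CAFs. The 8 fibroblast markers, none at 0, summed to 26957 CPM with control siRNA and 20342 CPM in untreated PDX CAFs. Among them, Pdgfra and Dcn went the other way. Pdgfra was at 118 CPM with control siRNA and 218 CPM in untreated PDX CAFs, and Dcn at 2.77 CPM and 3.51 CPM. The part of these differences was not tested. With 1 culture each, transfection and other differences between the cultures cannot be told apart. The control siRNA library is also the control of the Fn1 siRNA comparison.

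The widest differences of the 4 comparisons were between Cre- control and untreated PDX CAFs, cultures of different origin. Of 9 genes compared, 3 were over 2-fold higher in Cre- control CAFs and 2 over 2-fold lower, against 10.9% and 8.43% of 13537 genes. Tnn passed the filter only through the Cre- control library, in which it is high. Postn was 4.47-fold higher, at a log2 ratio of 2.16 (2.14 to 2.18), and Thbs1 was at 1.38 (1.37 to 1.40). Tnn, from 56 counts against 5, was at 3.22 (2.03 to 5.02). On the lower side, Spp1 was 22.4-fold lower, at -4.48 (-4.61 to -4.36), and number 42 from the lowest among 9907 genes at 10 CPM or more. Thbs2 was 2.55-fold lower, at -1.35 (-1.38 to -1.32). Inside 2-fold, Thbs3 was at 0.95 (0.83 to 1.07), Tnc at 0.77 (0.72 to 0.81), Sparc at 0.75 (0.74 to 0.77) and Tnxb at -0.87 (-1.12 to -0.63). Thbs4, below the filter, had 7 counts against 0. Set against 3 counts for the untreated library, these 7 counts were 2.11-fold higher. The counting interval of its log2 ratio began lower, at 0.38. The median of the 9 was 0.77, against -0.030 over all genes. These cultures also differed in fibroblast markers, which summed to 44895 CPM in Cre- control (8 of 8 at 1 CPM or more) and 20342 CPM in untreated PDX CAFs (7 of 8), none at 0, and in mural markers at 63.5 CPM (3 of 5 at 1 CPM or more, Kcnj8 at 0) and 12.6 CPM (1 of 5, Kcnj8 and Abcc9 at 0). Adipocyte markers summed to 954 CPM in Cre- control (6 of 7 at 1 CPM or more, none at 0) and 555 CPM in untreated PDX CAFs (3 of 7, Adipoq and Lep at 0), with Adipoq at 18.9 CPM in Cre- control. Tendon markers, none at 0, summed to 24.6 CPM in Cre- control (3 of 3 at 1 CPM or more) and 9.87 CPM in untreated PDX CAFs (2 of 3). Of these, only Tnmd was higher in Cre- control, at 22.2 CPM against 0.0847 CPM in untreated PDX CAFs. Scx (1.34 CPM against 2.58 CPM) and Mkx (1.03 CPM against 7.20 CPM) were lower in Cre- control CAFs. The part of these differences was not tested, and mouse line, host treatment, tumor, tamoxifen and culture cannot be told apart. In control siRNA CAFs, also from PDX, Thbs1 (3159 CPM) and Tnc (420.3 CPM) were close to Cre- control CAFs (3440 and 433 CPM). The differences in Thbs1 and Tnc were thus not shared by all PDX cultures. Thbs2 was at 867 CPM with control siRNA against 665 CPM in Cre- control CAFs. Postn (1248 CPM) and Spp1 (189 CPM) with control siRNA stayed far from Cre- control CAFs (4286 and 20.0 CPM). This comparison and the one before it share the untreated library. The Cre- control library is also the control of the knockout comparison, so these ratios are not independent.

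Genes with profiles most like those of the members over the 5 libraries were found by the root mean square difference of centered log2 CPM over a pool of 9839 coding genes that reached 10 CPM in some library. For Thbs1 they were Vegfa, Gadd45g and Pde1b, at differences of 0.13, 0.14 and 0.16. For Thbs2 they were Gramd1b, Col11a1 and Dkk3 at 0.19 to 0.20, and for Thbs3 Hspa1a, Arhgef19 and Rab30 at 0.071 to 0.095. Tnc was nearest to Galnt18, Ret and Pdlim7 at 0.073 to 0.078, and Tnxb to Mitf, Bloc1s3 and Tnrc6b at 0.11 to 0.13. Postn was nearest to Arl5a, Plcb4 and Chsy3 at 0.13 to 0.16, and Sparc to Slc25a36, Lamp2 and Kctd6 at 0.029 to 0.034. Spp1 had no close neighbor, with L1cam, Etv1 and Lipg at 0.33 to 0.42. Among members at 10 CPM or more the closest pair was Thbs3 and Sparc, at 0.34, and the farthest Spp1 and Postn, at 2.48. With 5 libraries from 2 sources of tumors, these are descriptions with no test.

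Other matricellular genes were compared from a list of 16, made of the CCN family, relatives of Sparc, the thrombospondin Comp, the tenascin Tnr and the periostin relative Tgfbi. Highest per length in untreated PDX CAFs were the Sparc relative Fstl1 at 1035 TPM, Cyr61 (CCN1) at 940.5 TPM and Ctgf (CCN2) at 339 TPM. Relative to Cre- control, the knockout had 0 of 11 over 2-fold higher and 1 lower (3.29% and 1.7% of all genes), Nov (CCN3), at 65.6 CPM in myosin IIA KO and 161 CPM in Cre- control CAFs, a log2 ratio of -1.30. With Fn1 siRNA, 0 of 10 passed 2-fold (0.523% higher and 0.377% lower of all genes). With control siRNA against untreated PDX CAFs, 3 of 10 were higher, where 2.98% of all genes were, Ctgf at 2.68, Smoc1 at 2.42 (61 counts against 10) and Cyr61 at 1.75, and 2 were lower, where 2.74% of all genes were, Tgfbi at -1.16 and Nov at -1.0. In Cre- control against untreated PDX CAFs, 6 of 11 were higher, where 10.9% of all genes were, led by Smoc1 at 8.29 (3631 counts against 10), Nov at 4.0, Wisp2 (CCN5) at 2.83 and Comp at 2.76 (33 counts against 4), and 1 was lower, where 8.43% of all genes were, Tgfbi at -1.12. Smoc1 in both comparisons, and Comp, passed the filter only through the library in which they are high. Medians in the 4 comparisons were -0.0059, 0.23, -0.098 and 1.03.

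Receptors bound by the members made up a list of 23. Per length, calreticulin (Calr) at 1849 TPM, Anxa2 at 1166 TPM and the integrin subunit gene Itgb1 at 1107 TPM were highest in untreated PDX CAFs. Cd36, a thrombospondin receptor and fatty acid transporter, was at 154 CPM in myosin IIA KO and 19.0 CPM in Cre- control CAFs, a log2 ratio of 3.02 (2.88 to 3.15), and was the 1 receptor over 2-fold higher of 20 compared (3.29% of all genes). Adipocytes also express Cd36, and the adipocyte marker sum differed in the same libraries as given above. The 2 receptors over 2-fold lower (1.7% of all genes) were Ptprz1, which binds tenascins, at -2.07, and the integrin subunit gene Itga8 at -1.60. With Fn1 siRNA 0 of 18 passed 2-fold (0.523% higher and 0.377% lower of all genes). With control siRNA against untreated PDX CAFs, Itga5 was higher at 1.08 and Itgb8 lower at -1.72, each 1 of 19 (2.98% and 2.74% of all genes). In Cre- control against untreated PDX CAFs, 4 of 21 were higher (10.9% of all genes), namely Cd36 at 8.25 (6.32 to 14.1, from 496 counts against 1), Ptprz1 at 8.02 (6.09 to 13.9, from 422 against 1), Itga8 at 4.51 and Itga9, a tenascin-C and osteopontin receptor subunit, at 4.48. Itga3 at -3.11 and Itgb8 at -2.47 were the 2 lower (8.43% of all genes). Cd36, Ptprz1 and Itgb8 in these comparisons of PDX CAFs passed the filter only through the library in which they are high. Receptor medians were -0.12, 0.064, 0.19 and 0.029.

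Matrix partners and proteases formed a list of 12, led per length by Col1a1 at 5479.9 TPM, Col1a2 at 1919 TPM and Lox at 1763 TPM in untreated PDX CAFs. Of 9 compared in the knockout, 0 passed 2-fold (3.29% higher and 1.7% lower of all genes), and the median was -0.30. With Fn1 siRNA, the targeted Fn1 itself was the 1 of 10 over 2-fold lower (0.377% of all genes), and the median was 0.14. Mmp9 was the 1 of 10 higher (2.98% of all genes) with control siRNA against untreated PDX CAFs, at 2.15. In Cre- control against untreated PDX CAFs, 2 of 10 were higher (10.9% of all genes). These were Adamts1, a protease that cleaves thrombospondins, at 1.49 and Mmp14 at 1.34. The medians were 0.14 with control siRNA and 0.79 in Cre- control CAFs, each against untreated PDX CAFs. Transcriptional regulators of such genes were a list of 15, all compared, with Twist1 at 200 TPM, Trp53 at 174 TPM and Id1 at 140 TPM highest in untreated PDX CAFs. In the knockout the tendon factor genes Mkx at 1.01 (58 counts against 27) and Scx at -1.84 (10 against 35) passed 2-fold, each 1 of 15 (3.29% higher and 1.7% lower of all genes). Both are also on the tendon marker list, and Scx passed the filter only through Cre- control. With Fn1 siRNA 0 of 15 did (0.523% higher and 0.377% lower of all genes). Control siRNA had 2 of 15 higher (2.98% of all genes), Egr1 at 1.75 and Id1, whose product is known as a repressor of Thbs1 in mice, at 1.13, and Cre- control CAFs had 1 of 15 lower (8.43% of all genes), Mkx at -2.78 against untreated PDX CAFs. Medians were -0.023, -0.046, 0.16 and -0.13 in the 4 comparisons.

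**Figure D5:**
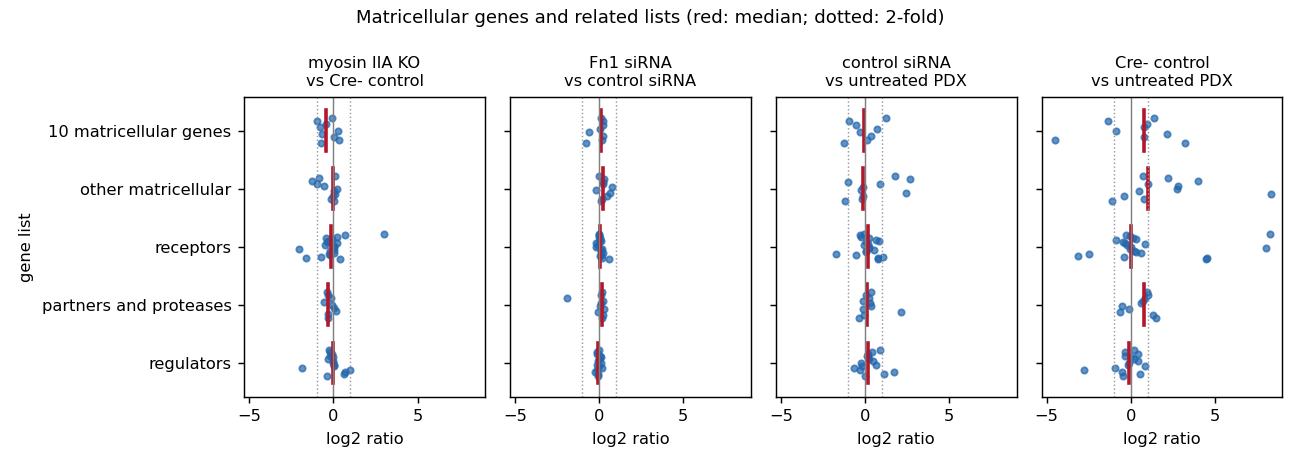
Log2 ratios of the matricellular genes and of 4 related gene lists (rows) in the 4 comparisons (panels); each point is a gene at 1 CPM or more in either library, red bars are medians and dotted lines mark 2-fold. The matricellular median is -0.46 in the knockout panel and 0.77 in the panel of Cre- control against untreated PDX CAFs, where the other matricellular genes have a median of 1.03.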

How the data were processed

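The authors deposited raw counts per gene, without normalization, in 1 table of 54636 rows with gene lengths. The submitters' notes name mm10. The aligner, counter, annotation release and strand setting were not given in the sources used here. Coordinates of the 10 genes equaled those of GENCODE M21. TMM factors came from edgeR 4.0.16 (R 4.3.3): pairwise factors served the log2 ratios, and factors from all 5 libraries jointly served the CPM. Ratios used 0.5 added counts, split in proportion to library size, and genes reaching 1 CPM in either library of the pair. Python 3.11.15, numpy 2.4.6, pandas 2.3.3, scipy 1.17.1 and matplotlib 3.10.9 were used, and interval and ratio code was tested on simulated data.

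The members and the lists were chosen with earlier results of these data known. All 10 members are named, with the 3 protein-coding genes most alike for each member at 10 CPM or more, and, of each related list, up to 4 genes in each direction over 2-fold and the 3 highest by TPM in untreated PDX CAFs. Totals per library were 26347117 (myosin IIA KO), 26212033 (Cre- control), 23351433 (Fn1 siRNA), 26596351 (control siRNA) and 22961620 counts (untreated PDX). Conditions were not tested against each other, as each has 1 library. As alternatives, ratios were recomputed with scaling by library totals, by upper quartiles or by DESeq2 1.42.0, with 5 added counts, with the filter dropped or raised to 10 CPM, with intervals wholly beyond 2-fold, with a 1.5-fold threshold and with untreated PDX CAFs as the control. A table of protein sequences was not used here.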

Additional observations from a re-analysis of the deposited data

How the results depend on the processing

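With 1 library per condition, no replicate could be left out. No paired analysis was possible because each condition has a single library. Of 102 single ratios recomputed under 3 other scalings, none moved by more than 0.074 on the log2 scale, 2 near 0 changed sign (Thbs1 in the knockout and Tnc with Fn1 siRNA, by library totals) and 1 changed sides of 2-fold (Thbs2 with control siRNA).

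With untreated PDX CAFs as the control, myosin IIA KO CAFs had 3 matricellular genes over 2-fold higher and 2 lower and a median of 0.49, and Fn1 siRNA had 1 higher, 1 lower and a median of -0.021, both medians of opposite sign. No share or median over all genes was computed for these pairs, so the counts cannot be set against a background. At 1.5-fold, 4 genes were lower in the knockout and 2 with Fn1 siRNA, 2 were higher and 2 lower with control siRNA, and 6 were higher in Cre- control CAFs. The share of all genes beyond 1.5-fold was not computed, so these counts have no background to be read against. By library totals, 2 genes were lower with control siRNA and the median of Cre- control against untreated PDX CAFs was 0.72, that of control siRNA -0.14 (-0.042 by DESeq2 size factors). With the filter dropped, 1 gene was higher with Fn1 siRNA (Thbs4, 2 counts against 0), and the medians were 0.067 for control siRNA, a change of sign, 0.86 in the comparison of Cre- control with untreated PDX and -0.27 in the knockout, where a filter of 10 CPM gave -0.26. Of 68 recomputed counts, the other 57 stayed within 1.5 times, and 3 of 26 medians changed sign.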
